A study of Mus musculus with 7 samples.

Results

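Chlorpyrifos and carbaryl are insecticides that block acetylcholinesterase, and the 2 cultures exposed to them were compared directly, library against library. Each compound had 1 library of the 7 in the series, so the comparison uses 2 libraries and 1 pair of compounds. The other 5 libraries (control, DDT, rotenone, deltamethrin and imidacloprid) serve only to show where each value lies. All 7 cultures came from wild-type mouse embryonic stem cells of the line B6G-2, which the labels name beside the tissue brain. The cells passed through embryoid bodies for 6 days and were expanded as neural progenitors in RHB-A medium with bFGF and EGF. At day 14 they were moved to BrainPhys with B27, in which they form nerve and glial cells, and each insecticide was given for 1 day. The labels state neither dose nor vehicle for either compound, so it cannot be said whether the doses match. With 1 library per compound no difference has a replicate check, and differences between cultures and between compounds cannot be told apart.

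Acetylcholinesterase ends cholinergic signalling by cleaving acetylcholine with an active-site serine. Chlorpyrifos is an organophosphate that is converted in tissue to its oxon, which phosphorylates that serine and leaves an enzyme that recovers slowly. Carbaryl is a methylcarbamate, which carbamylates the same serine and leaves an enzyme that recovers by hydrolysis. In developing neural tissue the enzyme is present before synapses form, and both compounds also react with other serine hydrolases.

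The deposited values are FPKM, fragments scaled to transcript length and library size, for transcript-structure events such as a transcript start, a transcript end or a skipped exon. A gene's level is the mean of its summed starts and its summed ends. For the comparison both sums had to agree within 0.3 (log2), averaged over the 2 libraries, at a mean of 1 FPKM or more, and 6382 genes passed. A difference is log2(FPKM + 1) with chlorpyrifos minus log2(FPKM + 1) with carbaryl, so the change of low genes is understated. A library is said to stand apart where its FPKM + 1 lies more than 1.5-fold beyond the range of the other 5 libraries. The chlorpyrifos library listed 91272 distinct events and the carbaryl library 91109, of which 79631 were shared. Summed start FPKM was 289995 and 285970, within the spread of the other 5 libraries (282569 to 290440).

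Genes of neural cells were well expressed with both compounds. Vim, an intermediate filament of progenitors, was at 1221 FPKM with chlorpyrifos and 1043 with carbaryl, and Sox2, a progenitor transcription factor, at 20.9 and 23.9. Gap43, a growth cone protein, was at 195 and 171, and Dcx, a microtubule protein of young neurons, at 23.3 and 25.9. Gfap, the filament of mature astrocytes, was at 0 in both libraries, and Aqp4 was listed at one end only, at 0 and 0.685. Pou5f1, the pluripotency factor, was at 0 in both. Of 15 pluripotency markers 2 could be compared, both higher with chlorpyrifos. They summed to 4.59 FPKM with chlorpyrifos and 3.80 with carbaryl, against 2.29 to 4.06 in the other libraries. Of 11 endothelial markers none could be compared. Of 15 microglia markers 1 could be compared, at 8.12 and 8.27 FPKM. Aif1, Cx3cr1 and Csf1r of microglia and Pecam1 and Cdh5 of blood vessels had no start or end line in either library. A missing line does not show that a gene was silent.

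Of the compounds' common target and its relatives, none differed 2-fold in FPKM + 1, but the target itself is expressed at a level where this scale compresses differences. Ache itself, on chr5:137287519-137294466 of GRCm38, was at 1.46 FPKM with chlorpyrifos and 0.702 with carbaryl, a log2 difference of 0.53. The other libraries ran from 0.279 to 1.77 with a median of 1.01, so both values lie inside their range. Without the added 1 FPKM its level was 2.09-fold higher with chlorpyrifos, and with a pseudocount of 0.1 FPKM the log2 difference was 0.96. Bche, butyrylcholinesterase, which cleaves the same substrate, was at 3.67 and 3.59 FPKM (log2 difference 0.03), against 1.38 to 3.99 elsewhere. The 6 measured genes of the list of acetylcholine enzymes, transporters and anchors split into 3 higher and 3 lower, none at 2-fold in FPKM + 1. Over all genes, 2.02% differed 2-fold or more between the compounds, in either direction.

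The other measured members of that list serve receptor assembly or ester hydrolysis. Lynx1, a membrane-anchored modulator of nicotinic receptors, was at 7.79 and 7.08 FPKM (0.12). Lypd6, a relative of Lynx1, was at 2.09 and 2.65 (-0.24), and Ric3, a chaperone of nicotinic receptors, at 3.64 and 3.73 (-0.03). Pon2, a lactonase of the paraoxonase family, was at 15.7 and 17.0 (-0.10). Chat, Slc18a3 and Slc5a7, which make, load and recover acetylcholine in cholinergic neurons, had no start or end line in either library. Neither had Colq, Pon1, Pon3 or Rapsn, and Prima1, the membrane anchor of the brain enzyme, was at 0 in both. These gaps do not show that the genes were silent. The ribosomal protein genes Rpl10, Rpl12 and Rpl19 had no line either, and Ndufa13 of respiratory complex I was at 0 in both.

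Of 17 acetylcholine receptor genes only Chrna7, the subunit of the homomeric alpha7 nicotinic receptor, could be compared. It was at 2.72 FPKM with chlorpyrifos and 1.90 with carbaryl (log2 difference 0.36), with 1.74 to 2.62 in the other libraries. The chlorpyrifos value was the highest of the 7. Chrna4 was listed at one end only, at 3.63 and 5.15 FPKM. Chrm3 and Chrna3 stayed under 1 FPKM in both libraries, at 0.521 and 0.678 for Chrm3 and at 0.488 and 0.821 for Chrna3. Few receptor genes thus had values that could be compared, and Chrna7 did not differ 2-fold.

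Serine hydrolases are enzymes with the same kind of active-site serine, and several are known to be hit by organophosphates. Of 58 on the list, 28 could be compared, with 14 higher and 14 lower and a median log2 difference of 0.01 against 0.00 over all genes. Only Esd passed 2-fold. Esd, S-formylglutathione hydrolase on chr14:74732297-74750765, was at 10.2 FPKM with chlorpyrifos and 24.8 with carbaryl (-1.21). All other libraries were higher, from 38.7 to 68.8 FPKM with a median of 46.5, so both compounds' libraries stood apart on the low side. The sum of both forms of its internal events ran the same way, at a median of 8.45 and 23.3 FPKM.

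Faah, which degrades anandamide, was at 0.825 and 1.69 FPKM (-0.56), and Pnpla8, a phospholipase, at 7.68 and 10.5 (-0.41). Abhd6, a monoacylglycerol hydrolase, was at 8.07 and 5.88 (0.40), its highest and nearly its lowest value over the 7 libraries. Pnpla6, the neuropathy target esterase, had ends that disagreed, with the larger end at 5.20 and 7.72 FPKM, so no fold is given. Mgll, which degrades 2-arachidonoylglycerol, likewise had ends that disagreed, at 0.903 and 0.877.

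**Figure D1:**
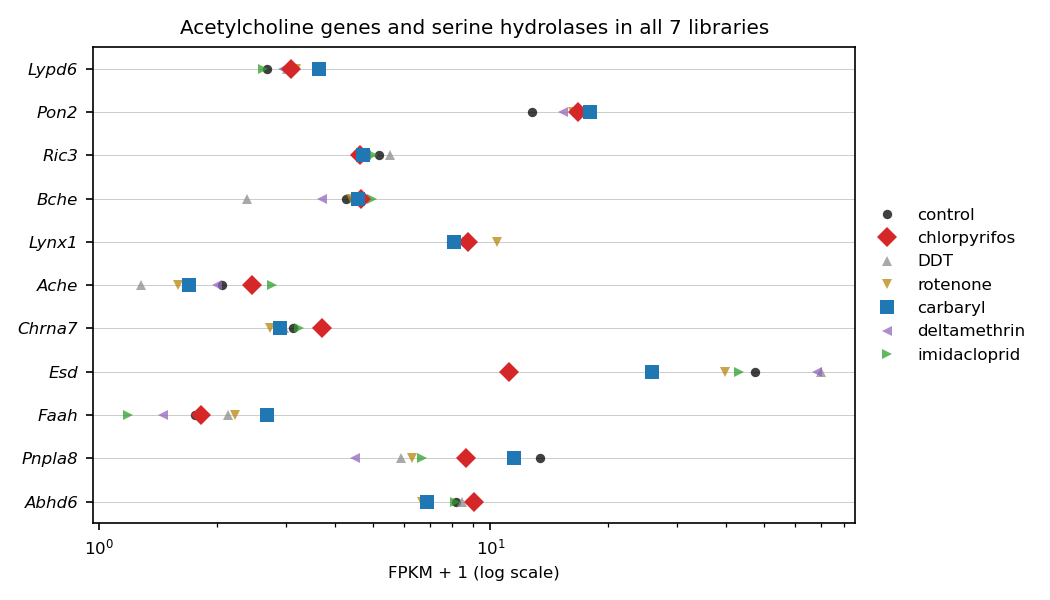
FPKM + 1 on a log axis for the measured acetylcholine genes and the 4 serine hydrolases with the largest differences, 1 marker per library. For Ache, Bche and Chrna7 at least one of the 2 compounds' libraries lies inside the range of the other 5, while Esd is lowest with chlorpyrifos and next lowest with carbaryl.

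Across all 6382 genes the 2 libraries were close. There were 64 genes at 2-fold or more higher with chlorpyrifos (1.00% of the genes compared) and 65 lower (1.02%). At 4-fold these counts were 6 and 6. A total of 93.5% of genes lay within 1.5-fold, the median log2 difference was 0.00 and its SD over genes was 0.34. The same count for the 21 possible pairs of libraries ran from 99 to 133 with a median of 112, and the pair of inhibitors had the 20th lowest count, under that of control and carbaryl. The 2 inhibitors of one enzyme were thus separated by no fewer genes than most other pairs of libraries. The pairs share libraries, so they are not independent of each other.

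**Figure D2:**
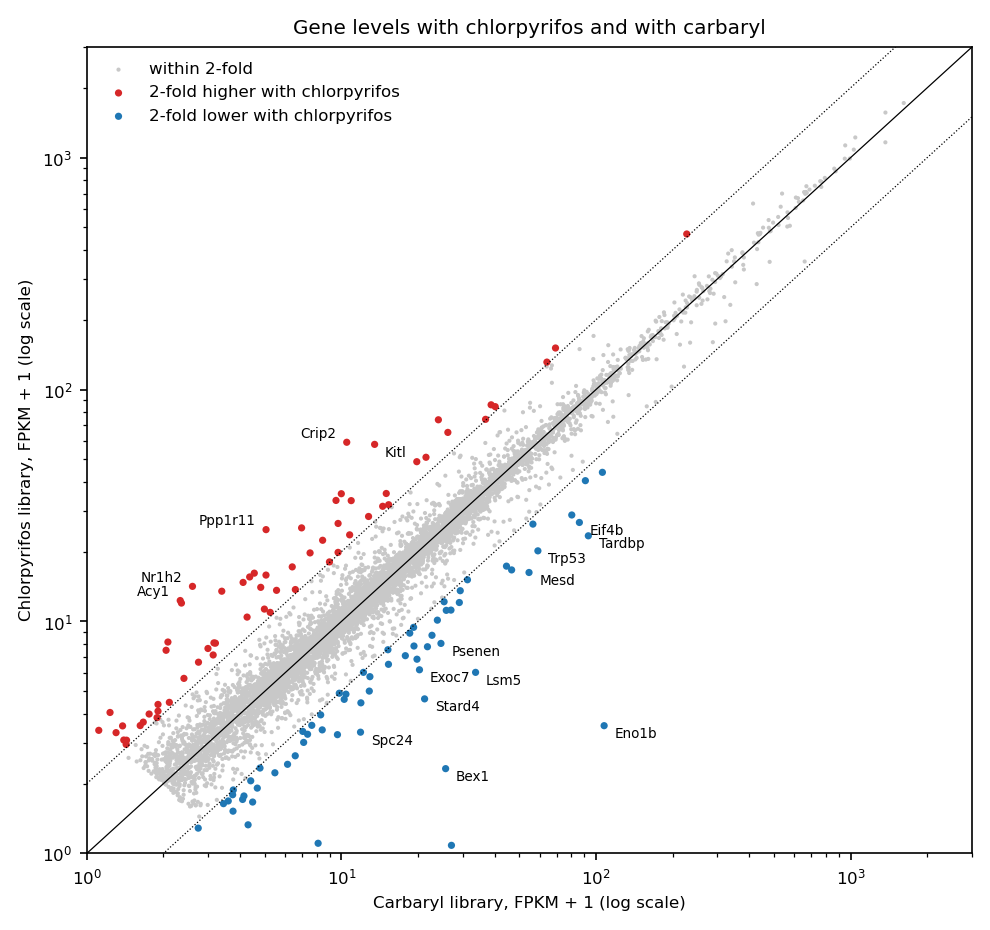
Each point is 1 of 6382 genes, with FPKM + 1 in the carbaryl library (x) and in the chlorpyrifos library (y) on log axes, the solid line at equality and dotted lines at 2-fold. The 64 genes above and 65 below are coloured, and most other genes lie near the line.

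Where the 129 genes lay among the other libraries differed by direction. Of the 64 that were higher with chlorpyrifos, carbaryl stood apart from the other 5 libraries in 29 and chlorpyrifos in 3. Of the 65 that were lower with chlorpyrifos, chlorpyrifos stood apart in 16 and carbaryl in 6. In another 73 of the 129 genes neither library stood apart, and in 2 both did. Among the 6253 genes under 2-fold, neither stood apart in 99.3%. Part of this follows from the 2-fold rule itself, which picks genes where the pair lies far apart.

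Of the 12 named genes lower with chlorpyrifos, Bex1, Tardbp, Eif4b and Exoc7 had the chlorpyrifos library apart from all others. Bex1, a small signalling adaptor of neurons on chrX:136213972-136215513, was at 1.32 FPKM with chlorpyrifos and 24.7 with carbaryl, a log2 difference of -3.47. The other libraries held 15.4 to 28.8 FPKM with a median of 26.4, so the chlorpyrifos library stood alone. Its relatives on the same chromosome did not move with it: Bex3 was at 147 and 134 FPKM (0.13) and Bex4 at 35.6 and 33.7 (0.08). These genes resemble each other in sequence, and the sources used here do not say how reads were divided among them.

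Tardbp, which encodes the RNA-binding protein TDP-43, was at 22.4 FPKM with chlorpyrifos and 92.3 with carbaryl, 4.12-fold higher with carbaryl. The other libraries ran from 60.1 to 132, and chlorpyrifos again stood apart. The gene lies on chr4:148612382-148627019 and has 30 annotated transcripts. Its internal exon-end event summed to 43.1 and 57.1 FPKM, a log2 difference of -0.40 only. The share of its end exon at chr4:148616725-148616844 was 2.28% of the end FPKM with chlorpyrifos, 70.8% with carbaryl and 72.1% to 99.1% elsewhere. With chlorpyrifos the internal event, at 43.1 FPKM, lay above the level of 22.4 FPKM taken from starts and ends. Starts and ends thus did not account for all of the gene's FPKM there, and the 4.12-fold difference in level is uncertain. Its relation to the choice of transcript end was not tested.

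Eif4b, a cofactor of the helicase that opens messenger RNA for translation, was at 25.7 and 85.1 FPKM (-1.69). Its values in the other 5 libraries were tight, from 88.6 to 92.9. Exoc7, a subunit of the exocyst that docks vesicles at the membrane, was at 5.19 and 19.3 (-1.71), with 14.8 to 21.6 elsewhere. In both genes the chlorpyrifos library alone was low. For Eif4b, matching events to genes by position gave a value more than 5% away from the one used.

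Other genes lower with chlorpyrifos were low in further libraries too. Eno1b, a copy of the glycolytic enolase gene Eno1, was at 2.55 and 107 FPKM (-4.92), but at 3.33 in control and 5.47 with DDT, and the other 3 libraries held 72.1 to 103. Eno1 itself had ends that disagreed, and its larger end total ran the other way, at 834 FPKM with chlorpyrifos and 395 with carbaryl. Reads of Eno1b and Eno1 may not be separable, so the value of Eno1b is uncertain. Lsm5, part of the ring on U6 RNA, was at 5.03 and 32.7 (-2.48), with 7.54 to 28.2 elsewhere. Stard4, a sterol carrier, was at 3.64 and 20.2 (-2.19), Spc24, a kinetochore subunit, at 2.33 and 10.9 (-1.84), and Mesd, a chaperone of lipoprotein receptors, at 15.3 and 53.6 (-1.75). Psenen, the smallest subunit of gamma-secretase, was at 7.04 and 23.6 (-1.61), and Ptgr2, a prostaglandin reductase, at 2.25 and 8.65 (-1.57). The chlorpyrifos library stood apart in none of these.

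Trp53, the p53 gene on chr11:69580359-69591873, was at 19.2 FPKM with chlorpyrifos and 58.1 with carbaryl (-1.55). These were the lowest and the highest of the 7 libraries, the others running from 26.6 to 48.1. Its internal intron event summed to 16.4 and 58.1 FPKM, close to the level from starts and ends. Among 19 measured genes of the list of p53 targets, which includes Trp53, 11 were higher and 8 lower, with a median of 0.03. Eda2r, a death receptor of that list, was also 2-fold lower at 2.01 and 6.11 FPKM (-1.24), but imidacloprid had 1.47. Dcxr and Ei24 were the largest on the other side, at 0.43 and 0.41.

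Of the 12 named genes higher with chlorpyrifos, Nr1h2, Ppp1r11, Acy1, Sncaip, Nelfcd and Gak had the carbaryl library apart from all others. Nr1h2, the oxysterol receptor LXR beta on chr7:44549616-44553951, was at 13.2 FPKM with chlorpyrifos and 1.60 with carbaryl (2.45). The other 5 libraries held 12.1 to 14.9, so the carbaryl library alone was low. Ppp1r11, an inhibitor of protein phosphatase 1, was at 23.9 and 4.06 (2.30), with 19.9 to 22.6 elsewhere. Acy1, an aminoacylase, was at 11.3 and 1.33 (2.40), with 3.51 to 9.68 elsewhere. Both again had carbaryl apart from all others.

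Sncaip, a partner of alpha-synuclein, was at 11.0 and 1.35 FPKM (2.35), Nelfcd, a subunit of the factor that pauses RNA polymerase II, at 34.6 and 8.99 (1.83), and Gak, a kinase that uncoats clathrin vesicles, at 15.2 and 3.55 (1.83). Carbaryl stood apart from the range of the other 5 libraries in each of these. Chlorpyrifos stood apart in none of the 12 named higher genes, while chlorpyrifos stood apart in 4 of the 12 named lower genes and carbaryl in none.

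The remaining named higher genes shared their low level with other libraries. Kitl, the ligand of the Kit receptor on chr10:100015630-100100416, was at 57.0 FPKM with chlorpyrifos and 12.5 with carbaryl (2.10). Deltamethrin had 12.9, and the other 4 held 59.8 to 64.8. Crip2, a LIM-domain protein, was at 58.3 and 9.49 (2.50), with 8.27 with deltamethrin and 10.1 with imidacloprid against 62.6 to 74.7 in the rest. Rsrc1, a splicing-related SR protein, was at 12.5 and 2.39 (1.99), and control had 2.44. Dmap1, a partner of DNA methyltransferase, was at 14.6 and 3.36 (1.83), and imidacloprid had 3.68. Faf2, which extracts proteins from the endoplasmic reticulum, was at 13.7 and 3.11 (1.84), and rotenone had 3.70. Serinc1 was at 32.3 and 8.52 (1.80), with 7.82 to 9.40 in 3 other libraries.

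The plot of named genes shows levels that fall into a high and a low set with little between for some genes. In 12 of the 24 named genes the largest gap between neighbouring libraries covered at least 70% of the gene's range on the log2 scale, with 1 library alone on its side in 5 and several on each side in 7. Over all 129 genes this held for 39 (30.2%), with 1 library alone in 27 and several on each side in 12. Among the 6253 genes under 2-fold it held for 261 (4.17%), but genes at 2-fold were chosen for a wide distance between 2 of the libraries, which favours a large gap. Genes with 5 or more annotated transcripts were at 2-fold in 2.79% of cases (86 of 3080), those with 2 to 4 in 1.42% and those with 1 in 0.79%. Whether transcript assignment contributes to these levels was not tested.

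**Figure D3:**
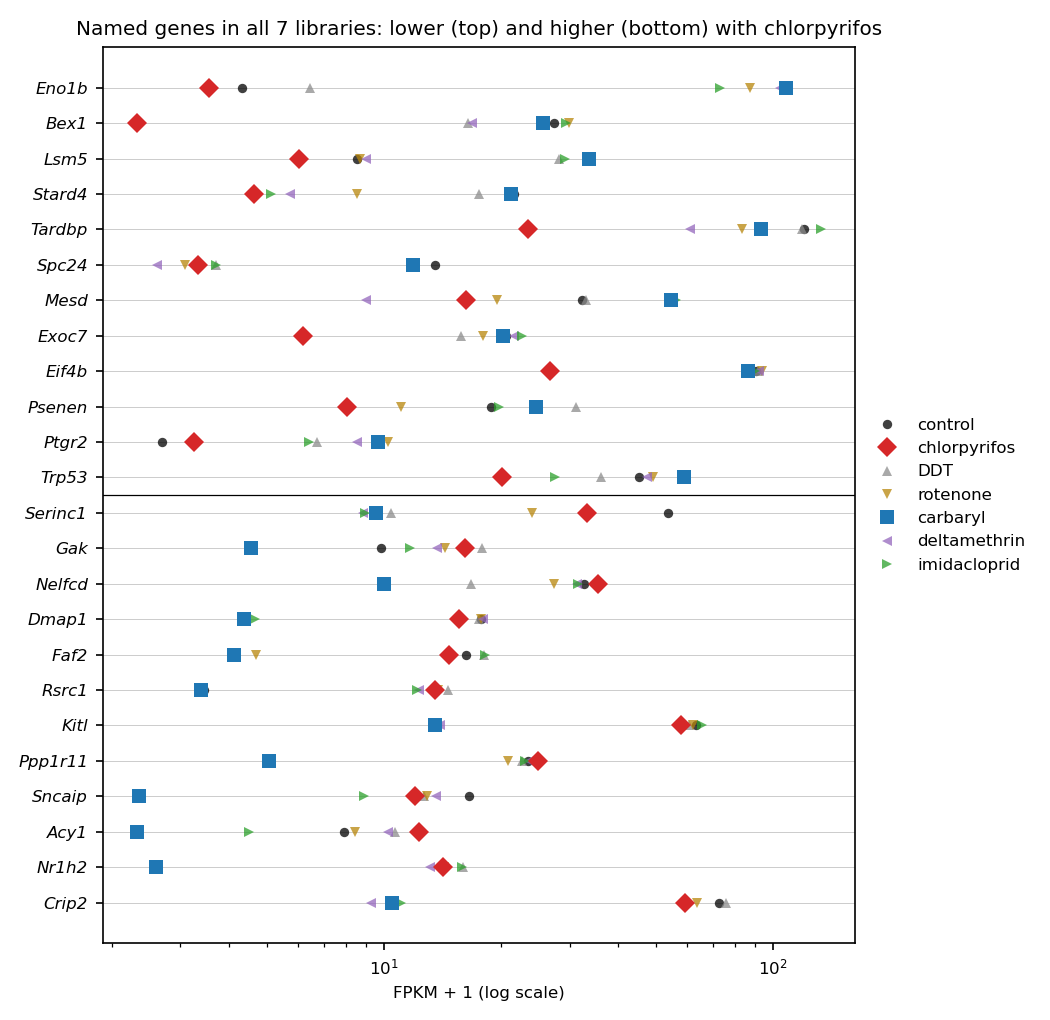
FPKM + 1 on a log axis for the 24 named genes, 1 marker per library, with genes lower with chlorpyrifos above the line and genes higher below it. Bex1, Tardbp, Exoc7 and Eif4b have chlorpyrifos alone at the low end, and Nr1h2, Ppp1r11 and Sncaip have carbaryl alone there.

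Of the 129 genes, 35 also had an internal event, such as a skipped exon, of at least 5 FPKM in both libraries. The sum of the event's forms ran the same way as the level in 34 of the 35 and was at least 2-fold in 28. Among 1856 genes under 2-fold by level, 17 (0.92%) were at 2-fold by such sums. Both measures come from the same estimated transcripts, so their match is not a second experiment. Epb41, which encodes a membrane skeleton protein, was the gene of opposite sign, at -1.01 by level and 0.14 by internal events (chosen after its values were seen).

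Among lists with 5 or more measured genes, the integrated stress response had the highest median. In this pathway stress kinases phosphorylate eIF2alpha, the factor ATF4 is translated, and ATF4 induces genes of amino acid uptake and synthesis and tRNA charging. Of 45 genes on the list, 23 could be compared: 19 were higher with chlorpyrifos and 4 lower, where 50.3% of all genes were higher. The median log2 difference was 0.17, against 0.00 over all genes. The differences were small, and only Trib3 was at 2-fold.

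The largest differences of the list were those of Trib3, Slc7a1, Chac1 and Slc7a11. Trib3, a pseudokinase that damps ATF4, was at 1.95 FPKM with chlorpyrifos and 0.427 with carbaryl (1.05), and the other libraries held 0.656 to 2.18. In the carbaryl library one of its 2 ends was at 0.854 FPKM and the other at 0, so this fold rests on very low values. Chac1, which degrades glutathione, was at 4.33 and 2.49 (0.61), with 2.10 in control and 8.49 with DDT. Slc7a11, the cystine transporter, was at 3.05 and 1.76 (0.55), with 1.76 in control and 4.56 with DDT. Asns, asparagine synthetase, differed less, at 39.5 and 32.8 (0.26), with 32.8 in control, 52.8 with DDT and 53.6 with rotenone. In Chac1, Slc7a11 and Asns the carbaryl library thus lay near control and chlorpyrifos between control and DDT.

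Atf4 itself was at 110 and 102 FPKM (0.12), and Ddit3, the factor CHOP, at 6.67 and 5.38 (0.27). The tRNA synthetase genes Nars, Sars, Tars and Gars were higher by 0.38, 0.26, 0.19 and 0.14, while Iars was at 0.00 and Cars at -0.17. Mthfd2, of mitochondrial one-carbon metabolism, was at 41.1 and 32.3 (0.34). Slc7a1, a transporter of cationic amino acids, went the other way, at 7.85 and 13.7 (-0.73), with deltamethrin at 8.20 and control at 13.5. Gdf15, a secreted stress factor, had a larger end total of 2.24 FPKM with chlorpyrifos and had no value with carbaryl. Centred on each gene's mean over libraries, the list's median was 0.06 with chlorpyrifos and -0.10 with carbaryl, against -0.10 in control, 0.29 with DDT and 0.12 with rotenone.

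The promoters of this list are shown because many hold the composite site of CHOP or C/EBP factors with ATF4, written TGATGNAA and searched on both strands. Windows ran from 250 bases before to 50 after each RefSeq gene start on GRCm38.p6, and 21 of the 23 genes had one. The motif stood in 8 of these 21 (38.1%), against 117 of 4987 compared genes with a window (2.35%) and 1219 of 27025 genes in the whole table (4.51%). The list was put together from known targets of ATF4, so a high share follows from its choice. Below are the 250 bases before the start of 3 members, 5′ to 3′ on the gene's strand, with the motif in capitals.
Slc7a11 (chr3:50443614-50443863, minus strand): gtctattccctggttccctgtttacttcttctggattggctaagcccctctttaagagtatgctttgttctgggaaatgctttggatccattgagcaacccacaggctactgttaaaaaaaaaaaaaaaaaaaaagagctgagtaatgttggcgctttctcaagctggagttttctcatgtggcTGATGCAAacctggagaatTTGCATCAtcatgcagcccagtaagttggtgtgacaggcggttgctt
Chac1 (chr2:119350992-119351241, plus strand): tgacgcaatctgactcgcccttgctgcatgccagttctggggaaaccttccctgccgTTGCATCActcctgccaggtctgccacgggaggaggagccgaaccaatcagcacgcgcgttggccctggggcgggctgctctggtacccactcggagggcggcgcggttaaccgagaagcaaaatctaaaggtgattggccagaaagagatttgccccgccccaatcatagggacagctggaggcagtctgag
Asns (chr6:7693210-7693459, minus strand): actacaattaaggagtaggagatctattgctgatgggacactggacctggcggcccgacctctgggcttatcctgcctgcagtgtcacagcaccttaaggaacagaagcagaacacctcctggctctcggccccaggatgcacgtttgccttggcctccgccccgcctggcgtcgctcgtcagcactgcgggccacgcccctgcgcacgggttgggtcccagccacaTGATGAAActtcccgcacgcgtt
Slc7a11 holds the motif 2 times, in opposite directions, beginning 66 and 47 bases before the start. In Chac1 it begins 193 bases and in Asns 23 bases before the start. A match is a description of letters and does not show binding.

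Glial genes were slightly lower with chlorpyrifos, and most neuronal genes slightly higher. Of 14 measured astrocyte markers 12 were lower and 2 higher (median log2 difference -0.14), none at 2-fold. Ndrg2, an astrocyte protein, was at 5.44 FPKM with chlorpyrifos and 8.34 with carbaryl (-0.54), inside the range of 4.80 to 10.5 of the other libraries. Kcnj10, the glial potassium channel, was at 17.6 and 21.9 (-0.30), Mlc1, an astrocyte membrane protein, at 20.8 and 25.8 (-0.29), and Mt1, a metallothionein, at 135 and 160 (-0.24). Sox9, a glial transcription factor, was at 24.3 and 21.7 (0.15), and Slc1a2, the glutamate transporter, at 3.70 and 3.62 (0.02). The summed FPKM of the 14 genes was 980 and 1093, within the 960 to 1202 of the other libraries.

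All 5 measured genes of the oligodendrocyte lineage were lower with chlorpyrifos, at a median of -0.11. Cldn11, a claudin of myelin, was at 0.996 and 1.65 FPKM (-0.41), and Ugt8a, which makes myelin galactolipid, at 1.39 and 2.13 (-0.39). Ptprz1, a phosphatase of glial precursors, was at 96.5 and 104 (-0.11). Olig2, the lineage's transcription factor, was listed at one end only, at 163 and 169 FPKM, and Sox10 at 0.961 and 1.92. Summed over the 5 genes the level was 103 and 113, within 101 to 118 in the other libraries.

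Of 19 neuron markers 13 were higher with chlorpyrifos and 6 lower (median 0.12), and Bex1 was the only one at 2-fold. Dpysl3, a regulator of growth cones, was at 57.5 and 43.5 FPKM (0.39), above and within the 38.2 to 55.6 of the others. Chgb, a granin of secretory vesicles, was at 7.66 and 6.21 (0.26), and Crmp1, a relative of Dpysl3, at 61.9 and 73.8 (-0.25). Summed over the 19 genes the level was 782 with chlorpyrifos and 742 with carbaryl, and carbaryl was the lowest of the 7 libraries. In bulk RNA, fewer cells of a type and less RNA per cell cannot be told apart.

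Progenitor markers showed no common direction. Of 13 measured, 5 were higher and 8 lower, and the median of -0.18 was 0.01 over 26 members when the larger of the start and end totals was used for every gene on the list. Dbi, which binds acyl-CoA, was at 196 and 322 FPKM (-0.71), the lowest and the highest of the 7 libraries, with 277 to 315 elsewhere. Hes5, a Notch target, was at 9.20 and 6.10 (0.52), with 6.30 to 9.98 elsewhere. Eomes, a factor of intermediate progenitors, was at 1.08 and 1.45 (-0.23).

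Markers of mesenchymal cells, another possible product of stem cells, were higher with chlorpyrifos in 10 of 15 cases (median 0.07). Their summed FPKM was 213 with chlorpyrifos and 168 with carbaryl, the highest and lowest of the 7 libraries, the others holding 188 to 201. Most of this was Sparc, a matrix protein, at 154 and 111 FPKM (0.47). Col1a1, the main collagen, was low in both, at 3.26 and 2.49 (0.29), Tagln was at 1.95 and 1.09 (0.50), and Fn1 at 2.87 and 4.65 (-0.55). The part of such cells in the other list differences was not tested.

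**Figure D4:**
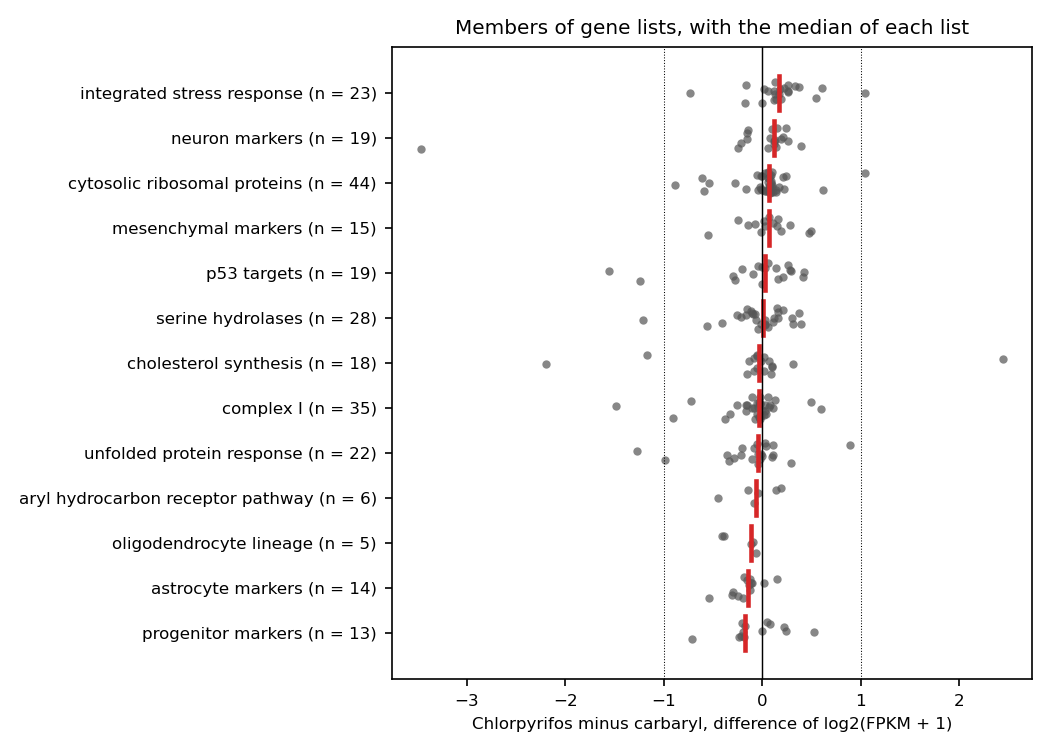
Each point is a measured member of a gene list, placed by its difference of log2(FPKM + 1), chlorpyrifos minus carbaryl, and red bars are list medians. Dotted lines mark 2-fold. List medians lie between -0.18 for progenitor markers and 0.17 for the integrated stress response, with few members beyond 2-fold.

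The aryl hydrocarbon receptor pathway, which senses planar aromatic compounds, showed no common direction. Of 6 measured members 2 were higher and 4 lower, with a median of -0.06. Hsp90aa1, a chaperone of the receptor, was at 155 and 213 FPKM (-0.45), and imidacloprid had 215. Hsp90ab1, on the same list, had ends that disagreed, and its larger end ran the other way, at 984 and 451 FPKM. Tiparp, a target gene of the receptor, was at 10.3 and 11.5 (-0.14), and Nqo1, another target, at 6.92 and 7.39 (-0.08). Arnt, the receptor's partner, was at 8.70 and 7.50 (0.19), Ptges3, a cochaperone, at 93.1 and 84.1 (0.14), and Nfe2l2 at 22.2 and 22.8 (-0.04). Cyp1b1, a classic target, was at 0 with chlorpyrifos and 0.869 with carbaryl, under the level compared. Ahrr, the receptor's repressor and also a classic target, was listed at one end only and ran the other way, at 0.827 and 0.0137.

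Sterol genes held some of the largest single differences without a common direction. Of 18 measured genes of cholesterol synthesis and transport, 8 were higher and 10 lower, with a median of -0.03. At 2-fold 1 was higher and 2 were lower, 16.7% of the list against 2.02% of all genes compared. This list too was chosen with earlier results of these data known, and no conclusion is drawn from that share. Besides Nr1h2 and Stard4, Msmo1, the sterol C4-methyl oxidase, was at 39.5 and 89.9 FPKM (-1.17), and DDT had 42.1 against 73.9 to 100 in the rest. Dhcr7, which makes cholesterol in the last step, was at 46.8 and 37.4 (0.32).

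Ribosomal protein genes were higher in 31 of 44 cases, with a median of 0.07. Rpl23 was at 468 FPKM with chlorpyrifos and 226 with carbaryl (1.04), and all other libraries held 434 to 486, so carbaryl stood alone. Rps14 was at 633 and 413 (0.61), Rps4x at 356 and 659 (-0.89) and Rpl30 at 192 and 293 (-0.61). These genes have many processed copies in the genome, which makes single values uncertain. Mitochondrial ribosomal genes were higher in 32 of 59 cases, led by Mrpl58 at 64.4 and 25.2 FPKM (1.32), Mrpl52 at 73.4 and 35.8 (1.01) and Mrpl4 at 25.9 and 12.6 (0.99).

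Genes of respiratory complex I were lower in 24 of 35 cases, with a median of -0.03. Ndufb5 was at 27.8 and 79.3 FPKM (-1.48), with 40.0 to 66.4 in the other libraries, Ndufa12 at 83.7 and 157 (-0.90), Ndufaf3 at 6.25 and 10.9 (-0.72) and Ndufa11 at 82.6 and 54.0 (0.60). Genes of the unfolded protein response of the endoplasmic reticulum were lower in 15 of 22 cases (median -0.04). Pdia6, a disulfide isomerase, was at 43.0 and 105 (-1.27), Derl1, which exports misfolded proteins, at 10.4 and 21.6 (-0.99), Sec61b, of the translocon, at 122 and 65.6 (0.89), and P4hb, another disulfide isomerase, at 134 and 172 (-0.36). Immediate early genes, which mark neuronal activity, were lower in 10 of 16 cases (median -0.04), with Ccn2 at 1.77 and 2.73 FPKM (-0.43), Egr1 at 15.4 and 18.7 (-0.26), Klf2 at 3.06 and 2.48 (0.22) and Dusp5 at 4.34 and 3.58 (0.22). None of these 3 lists had a median beyond 0.05 in either direction.

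Of 25 measured splicing regulators, 11 were higher and 14 lower (median -0.03), with 2 at 2-fold in each direction. That was 16% of the list, against 2.02% of all genes compared. The list was chosen with earlier results of these data known, so no conclusion is drawn from this share. Srsf1, a founding SR protein, was at 130 FPKM with chlorpyrifos and 63.2 with carbaryl (1.03), with 98.9 to 134 in the others. The other 3 at 2-fold were Lsm5, Tardbp and Rsrc1, described above.

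Exon choice was compared on a scale, cut-off and filter of its own, so its rate cannot be ranked against that of gene levels. For a skipped exon, the share is the FPKM of the form with the exon as a percentage of both forms, and events needed at least 5 FPKM over both forms in each library. Of 3216 skipped exons, 488 differed by 20 percentage points or more (15.2%), 243 used more with chlorpyrifos and 245 less. Shares of most exons were close, with a median absolute difference of 3.50 points. The other 20 pairs of libraries gave 13.5% to 15.2%, and of these only control with deltamethrin lay above the pair of inhibitors. The pairs share libraries here too.

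The other kinds of event differed at their own rates. Retained introns differed in 78 of 979 cases (7.97%), alternative exon ends in 232 of 1755 (13.2%) and several exons skipped together in 65 of 496 (13.1%). Several introns retained together differed in 14 of 153 cases (9.15%). Alternative transcript starts differed in 779 of 4099 genes (19.0%) and alternative ends in 111 of 1235 (8.99%). Of the 488 differing skipped exons, carbaryl alone lay more than 10 points outside the range of the other 5 libraries in 103. Chlorpyrifos alone did so in 98, both in 10 and neither in 277. Part of this follows from the cut-off itself, which picks exons where the pair lies far apart. No such count is given for the exons that did not differ, so these numbers have no background to be set against.

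A few skipped exons that lie whole in coding sequence are printed to show what the libraries chose between. They are taken from GENCODE M21 transcripts on GRCm38, 5′ to 3′, with the exon in capitals and 15 bases of each neighbouring exon in lower case. Ehmt2, Robo2 and Abi2 rank seventh to ninth by difference and were chosen after their values were seen.
Rbm18 (chr2:36127181-36127251, minus strand): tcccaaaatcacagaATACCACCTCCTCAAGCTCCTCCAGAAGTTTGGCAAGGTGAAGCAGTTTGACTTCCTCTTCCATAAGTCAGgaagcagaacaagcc
Snrpa1 (chr7:66070119-66070198, plus strand): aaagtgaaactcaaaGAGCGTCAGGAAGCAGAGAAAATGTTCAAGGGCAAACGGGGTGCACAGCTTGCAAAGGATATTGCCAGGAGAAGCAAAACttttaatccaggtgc
Ehmt2 (chr17:34905610-34905711, plus strand): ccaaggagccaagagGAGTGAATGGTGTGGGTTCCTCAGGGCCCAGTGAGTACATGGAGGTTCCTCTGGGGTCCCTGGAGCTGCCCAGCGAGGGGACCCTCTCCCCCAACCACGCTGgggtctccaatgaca
Robo2 (chr16:74008775-74008786, minus strand): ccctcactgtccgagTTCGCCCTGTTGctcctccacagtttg
Abi2 (chr1:60447260-60447406, plus strand): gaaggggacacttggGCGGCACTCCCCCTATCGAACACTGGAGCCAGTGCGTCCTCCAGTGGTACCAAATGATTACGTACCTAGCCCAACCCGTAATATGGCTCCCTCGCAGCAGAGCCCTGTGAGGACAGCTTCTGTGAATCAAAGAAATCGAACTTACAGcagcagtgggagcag
The exons of Rbm18 (71 bases) and Snrpa1 (80 bases) are not multiples of 3, so leaving them out shifts the reading frame. Those of Ehmt2 (102), Robo2 (12) and Abi2 (147) are multiples of 3 and keep it.

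The Rbm18 exon, in the gene of an RNA-binding protein, was in 93.4% of the FPKM with chlorpyrifos and 0.0125% with carbaryl. The other libraries held 0.0840% to 34.5%, so chlorpyrifos stood apart. The Ehmt2 exon, in the gene of the histone methyltransferase G9a, was in 7.14% with chlorpyrifos and 93.6% with carbaryl, and here carbaryl stood apart from 8.24% to 31.1%. This event carried 51.4 and 41.9 FPKM, so it does not rest on low values. The Abi2 exon, in the gene of an actin regulator, was in 99.5% and 15.5%, with 85.6% to 97.9% elsewhere, and carbaryl stood apart again. Abi2 also differed in level, at 15.7 and 45.6 FPKM (-1.48).

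The 12-base Robo2 exon, in the receptor for the axon guidance factor Slit, was in 96.6% with chlorpyrifos and 10.4% with carbaryl. The other libraries spread from 5.44% to 94.9%, so neither stood apart. The Snrpa1 exon, in the gene of the U2 snRNP protein A', was in 0.121% and 92.9%, but control had 0.145% and DDT 97.4%. The shares of both exons were thus spread over most of the range among the 7 libraries.

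The exons of Phf21a and Syncrip had both libraries at the ends of the range. The Phf21a exon (chr2:92215464-92215575), in the gene of a histone reader that represses neuronal genes, was in 4.89% with chlorpyrifos and 99.1% with carbaryl, on 6.79 and 9.51 FPKM. Both lay outside the 22.8% to 80.5% of the others. The Syncrip exon (chr9:88480606-88480765), in the gene of an RNA-binding protein, was in 97.5% and 5.05%, with 64.6% to 86.6% elsewhere, and both stood apart too. The Tm7sf2 exon, in the gene of a sterol reductase, was on a line that carries the name of the neighbour Zfpl1. It was in 10.9% and 99.5%, and the others spread from 4.12% to 96.8%. The Rnf14 exon, in the gene of a ubiquitin ligase, was in 97.1% and 10.4%, and the others spread from 5.71% to 90.4%. For Tm7sf2 and Rnf14 neither library stood apart.

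Differing exons had a length that is a multiple of 3 somewhat more often than the rest. Such a length was found in 303 of the 488 differing exons (62.1%) and in 1452 of the 2728 others (53.2%). These counts did not ask whether an exon lies in coding sequence, so they do not show that the reading frame was kept. Short exons of 51 bases or less differed in 84 of 491 cases (17.1%), and longer ones in 404 of 2725 (14.8%). Differing exons had a median of 13.6 FPKM over both forms against 17.6 in the rest. Of 22 genes at 2-fold in level that also had a measured skipped exon, 9 (40.9%) held a differing exon, against 169 of 1161 others (14.6%). Levels and exon shares come from the same estimated transcripts, so they are not independent measures. Why they went together was not tested.

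Among retained introns, the one of Rrp9, a small nucleolar RNP protein, was retained in 3.04% of the FPKM with chlorpyrifos and 99.99% with carbaryl, and DDT had 99.9%. The intron of Plekhj1 was retained in 96.0% and 5.14%, and deltamethrin had 88.3%. That of Ptprs, a receptor phosphatase of axons, was retained in 98.7% and 14.4%, and rotenone had 98.4%. Each of the 3 chlorpyrifos and carbaryl states recurred in another library.

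Among alternative exon ends, Thoc7, of the mRNA export complex THO, used the end named by the exon chr14:13957460-13957631 in 4.56% with chlorpyrifos and 91.1% with carbaryl. The others held 0.787% to 8.70%, so carbaryl stood alone. Rbm6, an RNA-binding protein, used its exon form in 12.7% and 98.2%, with 63.0% to 99.2% elsewhere, so chlorpyrifos stood alone. The largest difference lay in Gm43720, an annotated locus whose line carries the name Gpc2, at 97.2% and 0.00%.

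The largest differences in start and end choice were nearly complete. A start or end not listed in a library was taken as 0, so shares of 0.00% and 100% can stand for a missing line. Mier3, a chromatin factor, used a start in 0.00% with chlorpyrifos and 100% with carbaryl, on 6.06 and 7.50 FPKM, and in 0.00% in all other libraries. Ccnd2, cyclin D2, used one start in 99.0% and 0.476%, on 137 and 124 FPKM, and rotenone had 0.291% against 98.8% to 99.9% in the rest. Slc45a4 used one start in 100% with chlorpyrifos and 0.00% with carbaryl, on 6.07 and 7.56 FPKM. Of the 3 other libraries with a value, rotenone and imidacloprid had 100% and deltamethrin 0.00%, so neither stood apart. Among ends, Rfc4, a clamp loader subunit, used one end in 1.23% with chlorpyrifos and 88.1% with carbaryl, with 0.784% to 16.8% elsewhere. Rfc4 was also lower in level with carbaryl, at 25.5 and 8.70 FPKM (1.45). Etv4, an ETS factor, used its end in 87.5% and 0.00%, and deltamethrin had 0.142%. Utp6, of the small-subunit processome, used its end in 99.6% and 13.0%, and DDT had 2.33%.

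**Figure D5:**
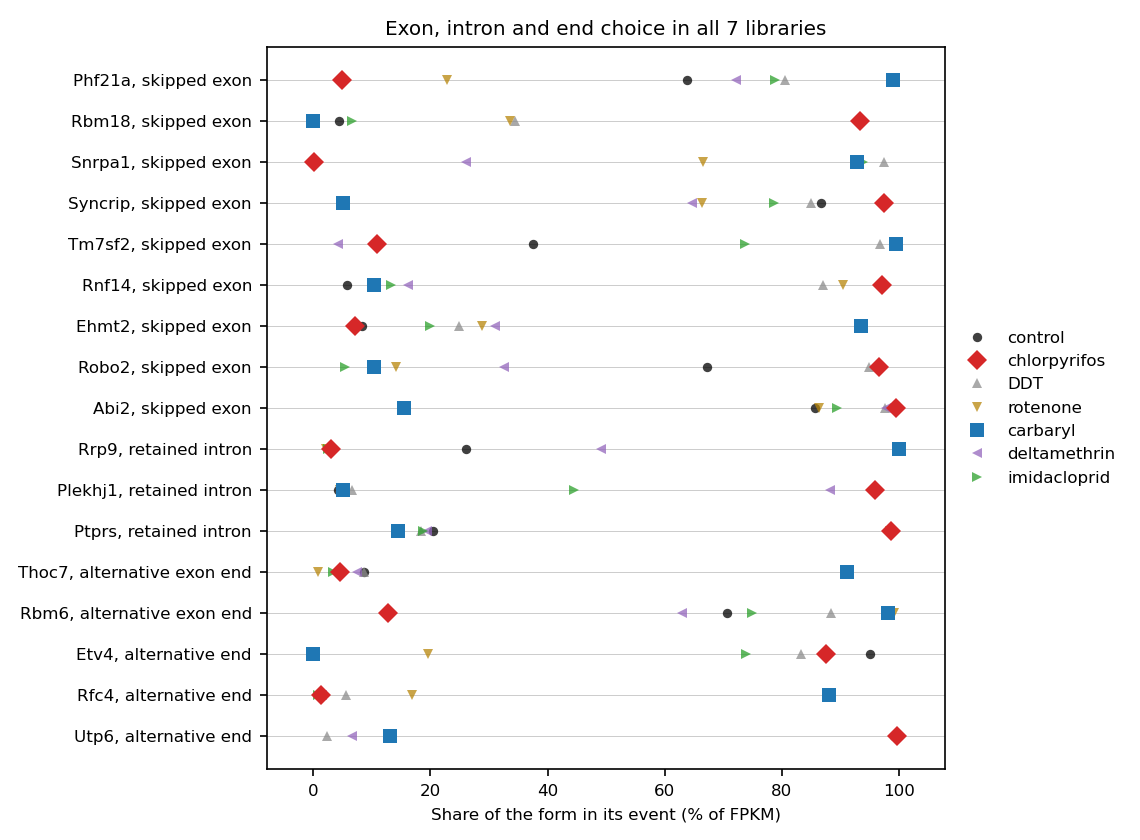
Share of the named form in its event, as a percentage of FPKM, for skipped exons, retained introns, alternative exon ends and alternative ends, 1 marker per library. Carbaryl stands alone in Ehmt2, Abi2, Thoc7 and Rfc4, and chlorpyrifos in Rbm18 and Rbm6, while in Snrpa1, Robo2 and Rrp9 the other libraries spread over most of the range.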

How the data were processed

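Total RNA of 7 cultures was sequenced. Per the submitters' processing notes, the genome build was GRCm38 and the tools were HISAT2 2.0.1, cutadapt 1.9.1 and bcl2fastq 2.17.1.14. The sources used here do not say which program produced the event lists and their FPKM. The authors deposited FPKM per event, which were used as deposited. Repeated lines, 5620 with chlorpyrifos and 5420 with carbaryl, were dropped by event and type. Starts and ends were summed per gene named on the line. These names cover merged loci: 6.82% and 6.33% of the FPKM matched to genes carried a name other than that at its position in GENCODE M21, and 5743 of 6382 genes had a value within 5% by position. The pseudocount was 1 FPKM. Of 1201 genes on 33 lists, 625 could be compared, 238 had ends that disagreed, 186 had no start or end event, 118 had one end only, 26 were under 1 FPKM, 6 were not matched and 2 were listed in one library only.

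The members, lists and thresholds were chosen with earlier results of these data known. Named genes are the 12 highest and 12 lowest differences at 2-fold or more with a mean of at least 5 FPKM, both ends at 2-fold the same way and the annotation naming the same gene, without predicted models and pseudogenes. To these come all measured acetylcholine and aryl hydrocarbon receptor genes, up to 4 of the largest differences of each list described, 6 skipped exons and 3 of each other event kind. Genes given to place these, such as family members, markers and other stress response genes, were picked after their values were seen. No count of reads is held in the files, the lowest listed value is 1e-06 FPKM, and depth is unknown, so no interval is given. With 1 library per compound there is no test, and leaving out a replicate is not possible. Alternatives were another pseudocount, other filters, start or end totals alone, gene by position and scaling. The steps were tested on simulated data. The calculations used python 3.11.15, pandas 2.3.3, numpy 2.4.6.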

Additional observations from a re-analysis of the deposited data

How the results depend on the processing

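The counts of 64 genes higher and 65 lower with chlorpyrifos became 104 and 110 with a pseudocount of 0.1 FPKM, 42 and 43 with a mean of at least 5 FPKM, and 149 and 144 over all genes by the larger total. Under the other 6 settings they stayed between 56 and 72, including genes with the same value by annotation only, which was chosen after seeing the data. The median of progenitor markers (-0.18) was -0.0013 at 5 FPKM, -0.027 by position, -0.063 for genes with the same value by annotation, and turned to 0.0069 over all genes. That of oligodendrocyte genes (-0.11) was -0.31 by start totals and -0.35 over all genes, where 11 genes were measured. Neuron markers (0.12) were at 0.077 by position. The stress response median stayed between 0.14 and 0.17 and the astrocyte median between -0.15 and -0.14 under all 9 settings. Splicing events at 20 points numbered 877 of 6599 (13.3%), 1517 at 1 FPKM and 201 at 20 FPKM (7.89%). Starts and ends numbered 890 (16.7%), 1455 at 1 FPKM and 279 at 20 FPKM. Apart from smaller or larger sets of genes and events tested, the cause was not tested. Of the values of single genes, smaller lists and events under the alternatives, 1608 moved by less than the spread over libraries (10 points for shares), 54 moved by more, and none that was larger than that spread changed sign. No paired analysis was possible because each compound has 1 library. Depth is unknown, so low values such as those of Ache and Trib3 carry no stated precision.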

Other observations

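Gene groups with no part in the comparisons above also differed by single genes more than as groups. Of 29 measured S phase genes 17 were higher with chlorpyrifos and 12 lower (median log2 difference 0.02), and Mcm6, of the replicative helicase, was at 40.5 and 60.0 FPKM (-0.55). Of 32 genes of G2 and mitosis 14 were higher and 18 lower (median -0.02). Pttg1, securin, was at 17.8 and 10.3 FPKM (0.73), with 4.07 to 12.3 in the other libraries, and Ccnb1, cyclin B1, at 62.4 and 40.1 (0.63), with 30.3 to 60.3. Both were highest with chlorpyrifos.

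Of 24 genes of Notch signalling and growth factors 12 were higher and 12 lower. Besides Kitl, the largest difference was that of Dtx2, a ubiquitin ligase of the Notch pathway, at 1.23 FPKM with chlorpyrifos and 4.48 with carbaryl (-1.30). The other libraries held 6.45 to 7.64, so both were below them and chlorpyrifos stood apart. Pdgfa, which acts on oligodendrocyte precursors, was at 6.14 FPKM with chlorpyrifos and 3.40 with carbaryl (0.70), and the other libraries held 2.96 to 4.92. Fgf1 was at 0.611 and 1.79 (-0.79), the lowest and highest of the 7 libraries. Among 13 calcium and potassium channel genes, Kcnk2, the potassium channel TREK-1, was at 3.46 and 10.9 (-1.42), with 1.27 to 6.59 elsewhere, so carbaryl stood apart. Of 22 proteasome genes 14 were higher and 8 lower, and Psmd4, a ubiquitin receptor, was at 25.3 and 55.5 (-1.10). Synapse genes (12 higher of 26, median -0.02), genes of autophagy and lysosome (13 of 28, -0.02) and NRF2 targets (11 of 22, 0.01) had medians near 0.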
